A study of Arabidopsis thaliana with 9 samples.

Results

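Seedlings kept in continuous white light (WLc) were compared with dark-grown seedlings that had just received their first hour of red light (R1h), gene by gene. A gene was included when its level reached 10 in 1 or both of these groups, which held for 17173 of the 17680 genes measured (97.1%). All seedlings were wild-type Arabidopsis thaliana of the Columbia-0 accession, germinated on MS medium without sucrose and harvested whole, and mRNA was measured by 3′-end RNA-seq. WLc seedlings grew for 2 days in white light with a fluence rate of 100 µE. R1h seedlings spent 47 h in true darkness and were then moved to red light of 10 µE for 1 h. True darkness follows 3 h of white light that induces germination and a pulse of far-red light that inactivates phytochrome. A further group, 2-day-old true-dark seedlings (D), is given beside them as a side value. Each group had 3 libraries from pooled seedlings, but the values are 1 mean per group, so no SD, n or p-value accompanies a difference here and no replicate check was possible. WLc and R1h differ in the colour, strength and duration of the light at once. Neither the separate germination treatment nor the far-red pulse is named for WLc. The effects of these steps cannot be told apart.

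A seedling that germinates in darkness lives on seed reserves, elongates its hypocotyl and keeps its plastids as etioplasts, a programme held in place by the phytochrome-interacting factors (PIFs). Red light converts phytochrome to its active form, which enters the nucleus and triggers the degradation of PIFs, and a first wave of light-signalling genes is transcribed within the hour. A seedling in lasting light has instead built green cotyledons, with chloroplasts full of antenna and photosystem proteins, and feeds itself by carbon fixation.

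Levels are pseudo-counts, that is, read counts that the authors adjusted to a common library size, averaged over the libraries of a group. The column total was 12.5 M pseudo-counts in WLc, 12 M in R1h and 11.4 M in D. A level of 10 in WLc rested on about 31 reads over the 3 libraries, and the 95% counting interval of a log2 ratio between levels of 10 then reached 0.77 to either side, against 0.23 at levels of 100 and 0.07 at 1000. Such intervals cover counting error only. The 100 highest genes held 38% of the WLc column and 29.9% of the R1h column.

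Differences are given as log2(level + 1) in WLc minus log2(level + 1) in R1h, so that changes of weakly expressed genes come out too small. Calls of higher or lower stand for differences of 2-fold or more on this scale, without a test. Of the 17173 genes, 2075 were higher in WLc than in R1h (12.1%) and 1705 were lower (9.93%), 22% in either direction. Differences of at least 8-fold were found for 285 higher and 181 lower genes, and differences of at least 64-fold for 18 higher and 8 lower genes. In contrast, 10120 genes (58.9%) stayed within 1.5-fold, and the median difference was 0.03. The whole counting interval lay beyond 2-fold for 1405 of the higher and 1285 of the lower genes. Calls varied with the level. Of 1956 genes with a mean level under 20, 25.1% were higher and 12.9% lower, and of 4529 genes with a mean level of 100 to 300, 8.04% were higher and 8.85% lower. Of the 185 genes above 10000, 31.4% were higher and 14.6% lower. The 92 genes whose higher level lay within 0.5 above the limit of 10 had a median difference of 0.33, and the 51 genes within 0.5 below it had 0.37.

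**Figure D1:**
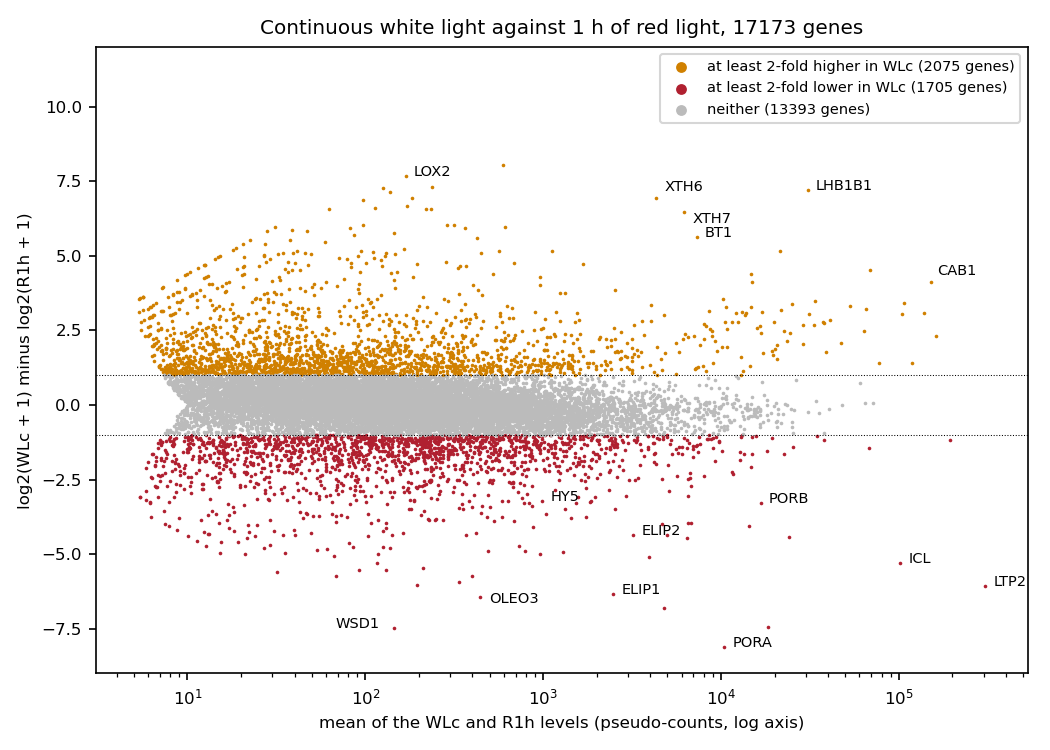
Difference between WLc and R1h (vertical axis, log2 scale with a pseudocount of 1) against the mean level of each gene (horizontal axis, pseudo-counts, log axis), 1 point for each of the 17173 genes. Dotted lines mark 2-fold. PORA at -8.13 and LHB1B1 at 7.19 lie near the ends of the range, and the genes called higher outnumber those called lower.

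Among genes with a higher level of at least 50, the 12 with the largest differences held a major antenna gene, a wall-modifying gene and several genes of defence. LHB1B1 (AT2G34430), which encodes a subunit of the photosystem II antenna, had 61067 pseudo-counts in WLc, against 417 in R1h and 124 in D, a difference of 7.19. XTH6 (AT5G65730), a xyloglucan endotransglucosylase of the cell wall, had 8544 in WLc, against 68.2 in R1h and 36.1 in D (6.95). The thionin gene AT1G66100 had 1191 in WLc, against 3.56 in R1h and 3 in D (8.03). In R1h, AT1G66100 was close to its level in D, whereas LHB1B1 stood above it.

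Several of the largest differences rested on a handful of reads in R1h. LOX2 (AT3G45140), the plastid lipoxygenase of jasmonate synthesis, had 337 pseudo-counts in WLc and 2 reads in R1h, a plain ratio of 519 (95% counting interval 141–4221). ACD6 (AT4G14400), an ankyrin-repeat membrane protein of defence, had 250 in WLc and also 2 reads in R1h, a ratio of 394 (95% counting interval 105–3139). PGL5 (AT5G24420), a 6-phosphogluconolactonase, had 276 in WLc and 3 reads in R1h (ratio 281, interval 95–1354). AT3G16670, annotated as a pollen Ole e 1 allergen and extensin family protein, had 193 in WLc and 2 reads in R1h, a ratio of 298 (95% counting interval 80.7–2424). The remaining 5 were AT1G22690 of the gibberellin-regulated family (7.31), the protein kinase gene CIPK20 (AT5G45820, 6.95), the MATE transporter gene AT5G52050 (6.69), the hydroxyproline-rich glycoprotein gene AT2G22510 (6.61) and AT3G55240 of unknown function (6.57). Their levels lay between 225 and 474 in WLc, against 1.31 to 3.59 in R1h.

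At the other end stood genes of the etiolated seedling and of the first light response. PORA (AT5G54190), the protochlorophyllide oxidoreductase that accumulates in darkness, had 73.4 pseudo-counts in WLc, against 20770 in R1h and 16982 in D, and its difference of -8.13 was the lowest of all 17173 genes. ELIP1 (AT3G22840), whose thylakoid protein protects the young chloroplast from excess light, had 59.1 in WLc, against 4908 in R1h and 31.4 in D (-6.35). LTP2 (AT2G38530), a lipid transfer protein, had 8888 in WLc, against 604258 in R1h and 551925 in D (-6.09). The 3 genes show different placings of the side group: PORA and LTP2 were high in D as well as in R1h, whereas ELIP1 was low in D as well as in WLc. LTP2 alone held 5.04% of the R1h column and 0.071% of the WLc column.

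WSD1 (AT5G37300), a wax ester synthase, had 2 reads in WLc and 290 pseudo-counts in R1h, and the plain ratio of R1h over WLc was 462 (95% counting interval 123–3678). GA2OX1 (AT1G78440), which inactivates gibberellins, had 1 read in WLc, 63.7 pseudo-counts in R1h and 0.941 in D, a ratio of R1h over WLc of 193 (95% counting interval 34.6–7744). The oleosin gene OLEO3 (AT5G51210) had 9.17 in WLc, against 879 in R1h and 1231 in D (-6.43). Oleosins coat the oil bodies of the seed, and OLEO3 is also among the genes that PIFs bind and induce in the dark.

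The remaining 6 of the 12 lowest were the berberine-bridge-type oxidase gene AT5G44440 (-7.45), the rubber elongation factor family gene AT2G47780 (-6.82), the bHLH gene HEC2 (AT3G50330, -6.05), the glycosyl hydrolase gene GH9B15 (AT4G23560, -5.93), the GDSL lipase gene AT2G42990 (-5.73) and the PLAC8 family gene AT5G35525 (-5.73). Among them AT5G44440 had the highest R1h level, with 210 pseudo-counts in WLc, against 36755 in R1h and 36922 in D.

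**Figure D2:**
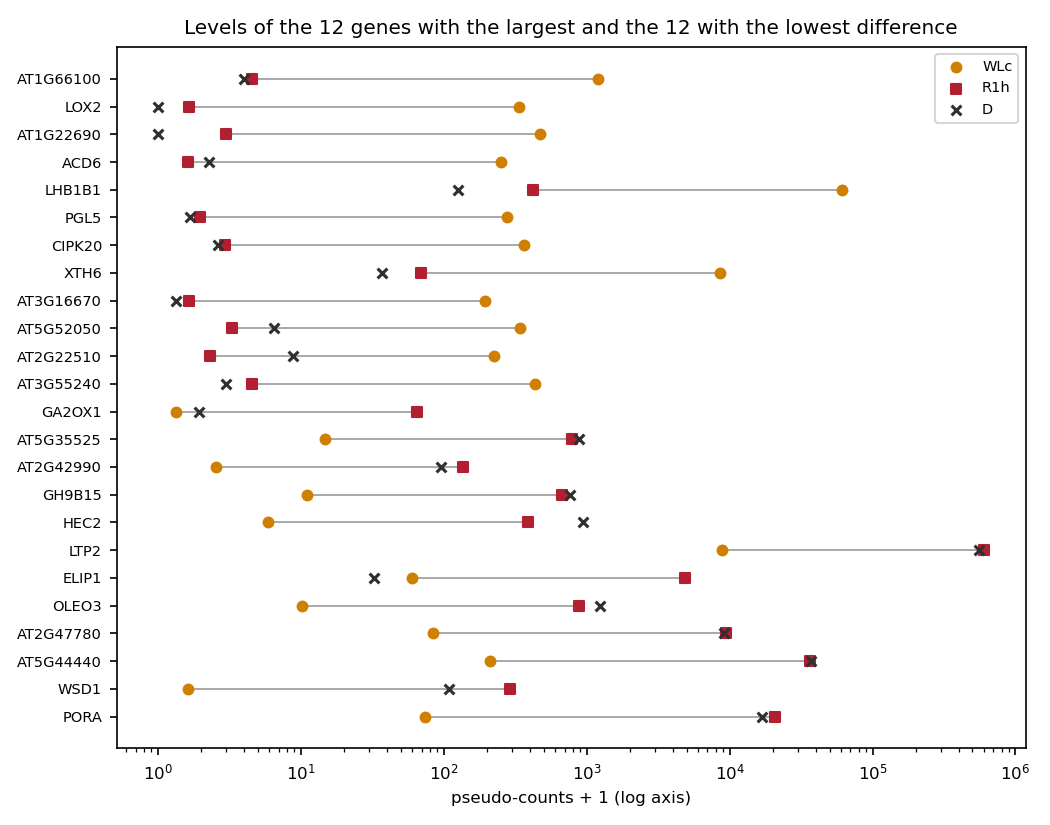
Levels in WLc (circles), R1h (squares) and D (crosses) of the 12 highest and the 12 lowest genes by difference, on a log axis of pseudo-counts + 1. Each line joins WLc and R1h. In the upper 12 the R1h and D symbols both lie far below WLc, and in the lower 12 ELIP1 and GA2OX1 have D on the side of WLc.

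The promoters of 8 genes with large differences in either direction are shown because they carry the words that PIFs and clock proteins are known to bind. The words searched on both strands were the G-box CACGTG, the PBE, which reads CACATG along the DNA and CATGTG when read on its complement, and the evening element, which reads AAATATCT or, when read on its complement, AGATATTT, and none of these words overlaps another in the sequences shown. Each sequence is the 250 bases before the annotated start of the gene in the RefSeq annotation of TAIR10.1, 5′ to 3′ on the strand of the gene, with the words in capitals. The study used TAIR9 gene models, whose starts may differ.
ELIP1: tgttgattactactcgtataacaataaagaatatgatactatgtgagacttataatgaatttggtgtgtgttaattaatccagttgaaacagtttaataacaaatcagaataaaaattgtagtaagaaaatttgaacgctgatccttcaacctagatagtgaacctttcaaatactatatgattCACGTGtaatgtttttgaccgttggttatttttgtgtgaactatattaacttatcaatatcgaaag
PORA: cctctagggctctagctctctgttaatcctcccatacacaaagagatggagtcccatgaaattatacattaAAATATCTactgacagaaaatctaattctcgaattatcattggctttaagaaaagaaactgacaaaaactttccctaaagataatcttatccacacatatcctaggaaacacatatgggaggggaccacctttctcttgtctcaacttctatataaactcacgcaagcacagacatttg
PORB: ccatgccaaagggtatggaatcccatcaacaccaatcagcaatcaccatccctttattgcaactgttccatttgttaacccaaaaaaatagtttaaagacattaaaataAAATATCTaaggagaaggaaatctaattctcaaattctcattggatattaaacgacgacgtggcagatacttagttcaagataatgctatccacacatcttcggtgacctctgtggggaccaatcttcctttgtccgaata
IAA19: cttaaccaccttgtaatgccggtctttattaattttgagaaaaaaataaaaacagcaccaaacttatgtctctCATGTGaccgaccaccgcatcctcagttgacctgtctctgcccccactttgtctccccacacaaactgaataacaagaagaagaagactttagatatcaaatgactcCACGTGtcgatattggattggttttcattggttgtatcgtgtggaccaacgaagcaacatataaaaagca
SAUR68: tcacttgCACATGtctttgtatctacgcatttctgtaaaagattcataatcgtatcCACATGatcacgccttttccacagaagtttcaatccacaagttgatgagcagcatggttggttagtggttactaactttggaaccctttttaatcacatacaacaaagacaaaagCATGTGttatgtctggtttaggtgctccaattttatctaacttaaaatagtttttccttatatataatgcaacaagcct
OLEO3: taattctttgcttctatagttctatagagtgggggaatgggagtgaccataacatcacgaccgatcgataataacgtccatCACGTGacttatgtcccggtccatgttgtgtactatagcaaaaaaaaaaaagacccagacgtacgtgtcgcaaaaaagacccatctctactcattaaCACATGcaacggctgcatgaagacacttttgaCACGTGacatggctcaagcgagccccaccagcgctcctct
PGL5: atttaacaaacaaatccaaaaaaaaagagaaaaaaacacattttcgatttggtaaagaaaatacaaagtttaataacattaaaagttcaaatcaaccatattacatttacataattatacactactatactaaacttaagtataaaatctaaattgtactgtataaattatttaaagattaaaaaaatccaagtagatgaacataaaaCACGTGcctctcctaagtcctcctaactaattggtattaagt
BT2: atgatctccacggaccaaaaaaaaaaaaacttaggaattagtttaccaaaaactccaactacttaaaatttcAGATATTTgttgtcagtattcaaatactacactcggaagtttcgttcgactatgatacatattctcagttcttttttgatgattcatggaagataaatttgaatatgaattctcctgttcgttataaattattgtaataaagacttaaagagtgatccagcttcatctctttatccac

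The coordinates on TAIR10.1 are chr3:8085670-8085919 (minus strand) for ELIP1, chr5:21992815-21993064 (minus strand) for PORA, chr4:13725296-13725545 (plus strand) for PORB, chr3:5263751-5264000 (plus strand) for IAA19, chr1:10319482-10319731 (plus strand) for SAUR68, chr5:20819818-20820067 (plus strand) for OLEO3, chr5:8338033-8338282 (minus strand) for PGL5 and chr3:17910739-17910988 (minus strand) for BT2. The G-box of ELIP1 began 66 bases before the start, that of PGL5 42 bases before, and those of OLEO3 169 and 40 bases before. IAA19, an Aux/IAA repressor of auxin response, held a G-box at 70 and a PBE at 177 bases before the start. SAUR68, an auxin-responsive growth gene, held PBEs at 243, 194 and 79 bases before it. PORA and PORB, which both were lower in WLc, shared an evening element in the same orientation, and BT2, which was higher, held it on the other strand. The window of LHB1B1 held none of these words and is not shown.

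Among all 27443 promoters of this length, 6.49% held a G-box, 11.1% a PBE and 4.79% an evening element, and among the 16865 promoters of the genes compared here the shares were 7.71%, 11.2% and 4.97%. Of 2008 promoters of genes higher in WLc, 8.57% held a G-box and 11.8% a PBE. Of 1674 promoters of lower genes, 10.3% held a G-box and 16.5% a PBE. For the 180 promoters of genes at least 8-fold lower these shares were 13.9% and 22.8%, and for the 278 of genes at least 8-fold higher 8.27% and 15.1%. The evening element stood in 6.03% of the higher and 6.69% of the lower promoters. With 50 bases after the start included, 10.7% of higher and 11.8% of lower promoters held a G-box, against 9.26% of all genes compared and 7.68% of all promoters. The I-box GATAA, a word common in light-regulated promoters, stood in 63.9% of higher, 62.6% of lower and 62.1% of all compared promoters of that longer window. A word in a promoter is a description and not a bound site.

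Nearly all genes of the antenna and the photosystems were higher in WLc. Of the 21 genes of the light-harvesting antenna, whose proteins hold chlorophyll a and b and pass light energy to the reaction centres, 20 were higher in WLc and 1 was lower, with a median of 3.06, beside 12.1% higher and a median of 0.03 over all genes. The antenna of photosystem II differed most. CAB3 (AT1G29910) had 41877 pseudo-counts in WLc, against 1182 in R1h and 278 in D (5.15). CAB2 (AT1G29920) had 131109 in WLc, against 5767 in R1h and 301 in D (4.51). CAB1 (AT1G29930) had 286855 in WLc, against 16292 in R1h and 11354 in D (4.14). For CAB1, 81.4% of the 50-base windows in the counted 3′ end occur in no other gene, and for CAB3 89.8%, so that part of the reads of these copies could not be placed. The exception was LHCB4.3 (AT2G40100), an isoform of a minor antenna protein, which had 30.6 in WLc, against 103 in R1h and 48.6 in D (-1.72). Together the antenna genes held 10.6% of the WLc column, 0.996% of the R1h column and 0.556% of the D column.

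Subunits of the photosystems and of the electron transport chain followed the antenna. Of 35 genes 33 were higher and none was lower (median 2.42), and their joint share was 11.6% in WLc, 2.11% in R1h and 1.57% in D. PSBO2 (AT3G50820), of the oxygen-evolving complex, had 1144 pseudo-counts in WLc, against 115 in R1h and 82.6 in D (3.31). PSAE1 (AT4G28750), on the stromal side of photosystem I, had 26759 in WLc, against 2768 in R1h and 2071 in D (3.27). PGRL1A (AT4G22890), of cyclic electron flow, differed by 3.26, and PSAO (AT1G08380), of photosystem I, by 3.22. The 2 genes that were not called were the kinase gene STN8 at 0.26 and the ferredoxin gene FD1, which had 1524 in WLc, against 2385 in R1h and 963 in D (-0.65). Transcripts of the chloroplast genome differed in the same direction: of 30 such genes 18 were higher and none lower, with a median of 1.75. ATCG00020 had 171 in WLc, against 10.5 in R1h. Genes encoded in the mitochondrion, 11 in number, had 3 lower and none higher (median -0.50). The libraries were made from the 3′ ends of mRNA, and how well they capture organelle transcripts was not tested. The organelle values are therefore not a measure of total organelle RNA.

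Carbon fixation genes were higher as well. Of 19 Calvin cycle genes 15 were higher and none lower (median 1.42), and of 17 photorespiration genes, which salvage the product of the oxygenase reaction of Rubisco, 12 were higher and none lower (median 1.56). RCA (AT2G39730), the Rubisco activase, had 62002 pseudo-counts in WLc, against 5563 in R1h and 3795 in D (3.48). GAPA2 (AT1G12900), a subunit of plastid glyceraldehyde-3-phosphate dehydrogenase, had 21631 in WLc, against 2558 in R1h (3.08), and its partner GAPB (AT1G42970) had 38398 in WLc, against 6956 in R1h (2.46). The aldolase gene FBA1 (AT2G21330) had 5578 in WLc, against 879 in R1h (2.66). In photorespiration, the peroxisomal aminotransferase genes GGT1 (AT1G23310) and AGT1 (AT2G13360) differed by 3.38 and 2.66, the serine hydroxymethyltransferase gene SHM1 (AT4G37930) by 2.73 and the hydroxypyruvate reductase gene HPR1 (AT1G68010) by 2.33. GGT1 had the largest of these differences, with 45722 in WLc, against 4400 in R1h and 3428 in D. Calvin cycle genes held 4.16% of the WLc column and 1.45% of the R1h column.

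**Figure D3:**
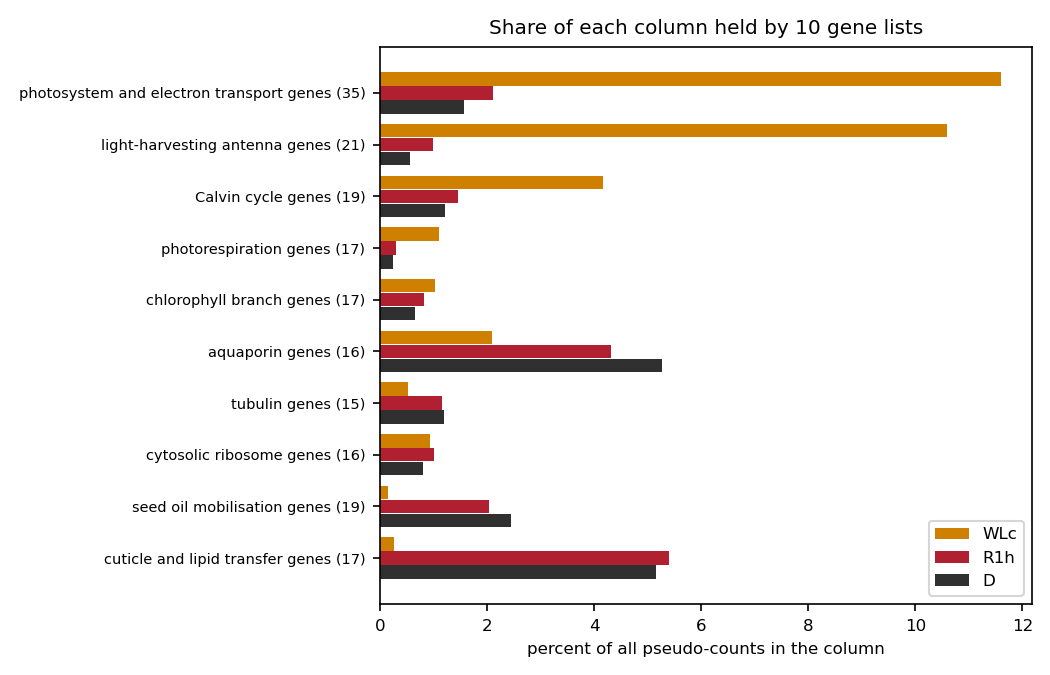
Share of all pseudo-counts in a column held by 10 gene lists, in percent, for WLc (upper bar of each list), R1h (middle) and D (lower), with the number of genes measured in brackets. The antenna genes hold 10.6% in WLc and 0.996% in R1h, and the cuticle and lipid transfer genes hold 0.262% in WLc and 5.40% in R1h. Most of the latter R1h share is LTP2, which alone holds 5.04% of the R1h column.

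In the pathways that make the pigments, a smaller share of genes was called higher than among the antenna and photosystem genes. It was 6.25% for early tetrapyrrole genes, 23.5% for the chlorophyll branch and 35.7% for carotenoid genes, beside 12.1% over all genes. Of 16 early tetrapyrrole genes, from glutamate to protoporphyrin, 1 was higher and none lower (median -0.06). That gene was PPOX1 (AT4G01690), protoporphyrinogen oxidase, with 655 pseudo-counts in WLc, against 303 in R1h (1.11), and its counting interval reached under 2-fold. Of 17 genes of the chlorophyll branch 4 were higher and 3 lower (median 0.48). The cyclase gene CRD1 (AT3G56940) had 60070 in WLc, against 17560 in R1h and 8049 in D (1.77), and CHLH (AT5G13630), the large subunit of magnesium chelatase, had 30095 in WLc, against 9384 in R1h and 2175 in D (1.68). PORB (AT4G27440), a further protochlorophyllide oxidoreductase, had 3091 in WLc, against 30306 in R1h and 33706 in D (-3.29). Their relative PORC was not called, at 2278 in WLc, against 1720 in R1h and 1019 in D (0.40).

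Of 14 carotenoid genes 5 were higher and none lower (median 0.74), and of 10 genes of the plastid MEP pathway, which supplies isoprenoid precursors, 3 were higher and none lower (median 0.51). CCD4 (AT4G19170), which cleaves carotenoids, had 87 pseudo-counts in WLc, against 8.48 in R1h (3.21). The xanthophyll genes BCH2 (AT5G52570), ABA1 (AT5G67030) and LUT5 (AT1G31800) differed by 2.16, 1.93 and 1.79. In the MEP pathway HDR (AT4G34350), which carries out the last step, had the largest difference, at 1.53, followed by ISPF (AT1G63970) at 1.42 and HDS (AT5G60600) at 1.13.

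The early light-inducible proteins and their relatives, 9 genes of 1- to 4-helix thylakoid proteins of photoprotection, differed in both directions: 3 were higher, 2 lower and 4 neither (median -0.02). ELIP2 (AT4G14690) accompanied ELIP1, with 296 pseudo-counts in WLc, against 6127 in R1h and 158 in D (-4.37). In the opposite direction stood the helix proteins OHP2 (AT1G34000), with 2021 in WLc, against 743 in R1h (1.44), OHP1 (AT5G02120), with 3017 in WLc, against 1192 in R1h (1.34), and SEP1 (AT4G34190), with 942 in WLc, against 457 in R1h (1.04). PSBS (AT1G44575), which triggers the dissipation of excess light energy, was not called, at 21575 in WLc, against 12523 in R1h (0.78). SEP2 (AT2G21970) stood at -0.69, and the protein genes LIL3:1 (AT4G17600) and LIL3:2 (AT5G47110), which act in chlorophyll synthesis, stood at -0.02 and -0.71.

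Light signalling genes were more often lower in WLc than higher, beside 9.93% lower over all genes. Of 15 regulators downstream of the receptors none was higher and 5 were lower (median -0.42). HY5 (AT5G11260), the bZIP factor that promotes photomorphogenesis, had 191 pseudo-counts in WLc, against 1784 in R1h and 162 in D (-3.21). HFR1 (AT1G02340), an atypical HLH protein that binds PIFs, had 85.4 in WLc, against 915 in R1h and 643 in D (-3.41). RUP1 (AT5G52250) and RUP2 (AT5G23730), WD40 proteins that return the UV-B receptor to its resting state, had 260 and 148 in WLc, against 1350 and 348 in R1h and 154 and 19.8 in D. For HY5 and RUP1 the WLc level thus lay nearer to that of D than to that of R1h.

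Of 12 B-box genes without a CCT domain 6 were lower, none higher and 6 neither (median -1). BBX30 (AT4G15248), a microprotein with a single B-box, had 87.2 pseudo-counts in WLc, against 494 in R1h and 1.26 in D (-2.49). BBX32 (AT3G21150) had 41.1 in WLc, against 285 in R1h and 1 read in D (-2.76). BBX31 (AT3G21890) differed by -2.59 and BBX29 (AT5G54470) by -2.86. BBX30, BBX31 and BBX32 stood in WLc between their R1h and D levels.

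Of 9 photoreceptor genes 1 was higher (11.1%), 1 lower (11.1%) and 7 were neither, with a median of -0.30. These shares were near the 12.1% and 9.93% over all genes. PHYA (AT1G09570), the receptor of etiolated seedlings, had 815 pseudo-counts in WLc, against 2902 in R1h and 4587 in D (-1.83). CRY1 (AT4G08920), a blue-light receptor, had 1392 in WLc, against 565 in R1h and 814 in D (1.3). PHYB was not called, at 284 in WLc, against 350 in R1h (-0.30).

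Of the 8 PIF genes 3 were higher in WLc, 1 was lower and 4 were neither (median 0.46). PIF7 (AT5G61270), known for its part in shade responses, had 215 pseudo-counts in WLc, against 5.21 in R1h and 0.658 in D (5.12). PIF4 (AT2G43010), which links light and temperature to growth, had 375 in WLc, against 111 in R1h and 78.2 in D (1.75), and PIF5 (AT3G59060) had 301 in WLc, against 101 in R1h and 52 in D (1.57). The lower gene was PIL1 (AT2G46970), a direct PIF target, with 4.51 in WLc, against 34.8 in R1h and 662 in D (-2.70). PIF1 (AT2G20180) and PIF3 (AT1G09530), prominent in darkness, stood at -0.09 and -0.57, PIF8 (AT4G00050) at 0.81 and PIL2 (AT3G62090) at 0.11. PIF8 had 230 in WLc, against 131 in R1h and 24.6 in D.

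**Figure D4:**
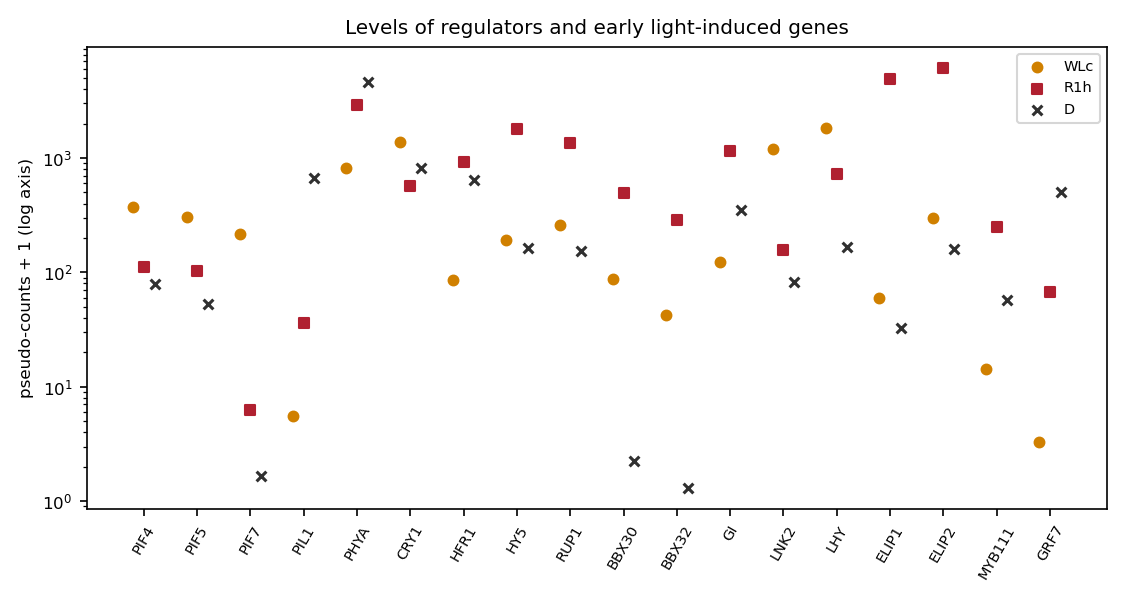
Levels of 18 genes in WLc (circles), R1h (squares) and D (crosses), on a log axis of pseudo-counts + 1. HY5, RUP1, GI, ELIP1 and ELIP2 have their highest level in R1h, whereas PIF4, PIF5 and PIF7 have it in WLc.

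The circadian clock genes differed in both directions. Of 25 genes 4 were higher and 8 lower (median -0.05). Among the higher ones, LHY (AT1G01060), a core MYB repressor, had 1838 pseudo-counts in WLc, against 719 in R1h and 166 in D (1.35), and the coactivator LNK2 (AT3G54500) had 1190 in WLc, against 156 in R1h and 80.9 in D (2.93). Also higher were the MYB activators RVE8 (1.26) and RVE4 (1.22). GI (AT1G22770), the evening gene GIGANTEA, had 122 in WLc, against 1144 in R1h and 353 in D (-3.21). PRR9 (AT2G46790) had 2.58 in WLc, against 16.6 in R1h (-2.30), although 37% of its 3′-end windows were unique, and PRR3 (AT5G60100) had 18.7 in WLc, against 88.5 in R1h (-2.18). The evening complex genes LUX and ELF3 were lower by less, at -1.20 and -1.35. Neither group was grown in cycles of day and night, and the phase of the clock at harvest was not tested.

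The genes that PIFs bind and regulate in the dark (PIF direct target genes, defined in earlier work on other libraries) were counted by the sign of PIF action. Of 108 PIF-repressed targets 46 were higher in WLc, 8 lower and 54 neither (median 0.83), beside 12.1% and 9.93% over all genes. Of 190 PIF-induced targets 107 were lower, 7 higher and 76 neither (median -1.17). Of the repressed targets, AT3G55240 differed most (6.57), followed by OFP16 of the ovate family (5.09), with 870 pseudo-counts in WLc, against 24.6 in R1h and 29.6 in D. GASA6 (AT1G74670), a gibberellin-regulated peptide gene, had 1802 in WLc, against 110 in R1h and 255 in D (4.02). The transcription factor gene bHLH071 had 81.6 in WLc, against 4.51 in R1h (3.91). Of the induced targets, the fatty acid desaturase gene ADS4 had 50 in WLc, against 1530 in R1h and 1325 in D (-4.91), and the caleosin gene RD20 had 8.64 in WLc, against 268 in R1h and 176 in D (-4.81). The induced targets as a whole held 0.74% of the WLc column, 6.62% of the R1h column and 6.57% of the D column, to which LTP2 contributed the larger part in R1h.

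Genes of seed reserves were low in WLc. Of 15 seed storage and oil body genes 14 were lower and none higher, with a median of -3.14, the lowest of the 57 lists. CRA1 (AT5G44120), the 12S globulin cruciferin, had 97.1 pseudo-counts in WLc, against 1659 in R1h and 958 in D (-4.08). CRU3 (AT4G28520) and CRU2 (AT1G03880), further cruciferins, had 27.8 and 2.2 in WLc, against 323 and 33.6 in R1h. In whole seedlings, fewer cells of a type and less RNA per cell cannot be told apart.

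Breakdown of the stored oil feeds the seedling before it can fix carbon. Of 19 genes of oil mobilisation 11 were lower and 1 higher (median -1.19), and their share was 0.148% of the WLc column, against 2.04% of the R1h column. The glyoxylate cycle, which turns fatty acid carbon into sugar precursors, led them. ICL (AT3G21720), isocitrate lyase, had 5087 in WLc, against 199218 in R1h and 237854 in D (-5.29), and the malate synthase gene MLS (AT5G03860) had 562 in WLc, against 12396 in R1h and 10948 in D (-4.46). MFP2 (AT3G06860), of fatty acid β-oxidation, differed by -2.50 and PCK1 (AT4G37870), which feeds gluconeogenesis, by -2.40. PMDH2 (AT5G09660), a peroxisomal malate dehydrogenase that also serves photorespiration, was the higher one, with 2723 in WLc, against 520 in R1h (2.39).

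Among 9 germination and abscisic acid genes 4 were lower and 1 higher (median -0.77). ABI3 (AT3G24650), a B3 factor of seed maturation, had 26.2 pseudo-counts in WLc, against 140 in R1h (-2.38), and ABI5 (AT2G36270) had 26.7 in WLc, against 68.7 in R1h (-1.33). SOM (AT1G03790), which represses light-dependent germination, had 130 in WLc, against 323 in R1h (-1.31). DOG1 (AT5G45830), a dormancy gene, had 19.1 in WLc and 1 read in R1h, a ratio of 59.8 (95% counting interval 9.9–2305). Of 11 heat shock genes 9 were lower and none higher (median -2.82). HSP17.6A (AT5G12030), a small heat shock protein, had 2.88 in WLc, against 181 in R1h and 146 in D (-5.55), and HSFA2 (AT2G26150), a heat shock factor, had 2.87 in WLc, against 38.6 in R1h (-3.35). HSP22 (AT4G10250), of the same class of chaperones, had 1 read in WLc, a ratio of R1h over WLc of 101 (95% counting interval 16.5–3752). Of 5 galactinol and raffinose genes 3 were lower (median -1.05), the largest difference being that of GOLS3 (AT1G09350), a galactinol synthase, with 3.2 in WLc, against 118 in R1h and 20.5 in D (-4.83). GOLS2 (AT1G56600) and the raffinose synthase gene SIP1 (AT5G40390) differed by -1.95 and -1.05.

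The cuticle coats the epidermis with wax and cutin. Of 17 cuticle and lipid transfer genes 8 were lower, 2 higher and 7 neither (median -0.98). CER1 (AT1G02205), of alkane formation, had 31 pseudo-counts in WLc, against 945 in R1h and 681 in D (-4.88), and CER2 (AT4G24510), of wax chain elongation, had 1980 in WLc, against 8079 in R1h (-2.03). Within the lipid transfer proteins the neighbours LTP1 and LTP2 differed in opposite directions: LTP1 (AT2G38540) had 3927 in WLc, against 1141 in R1h and 705 in D (1.78). LTP3 (AT5G59320) was also higher, with 13.8 in WLc, against 3.99 in R1h (1.57).

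Aquaporins are channels for water in the plasma and vacuolar membranes, and tubulins build the microtubules. Of 16 aquaporin genes 6 were lower and none higher (median -0.79), and they held 2.09% of the WLc column, 4.31% of the R1h column and 5.26% of the D column. PIP2;4 (AT5G60660), of the plasma membrane, had 85.6 pseudo-counts in WLc, against 1286 in R1h (-3.89), and PIP1C (AT1G01620) had 36512 in WLc, against 99448 in R1h (-1.45). PIP1;5 (AT4G23400) and PIP2B (AT2G37170) differed by -1.60 and -1.3. Of 15 tubulin genes 8 were lower and none higher (median -1.03). TUB1 (AT1G75780), a β-tubulin, had 412 in WLc, against 4667 in R1h and 4166 in D (-3.50). TUB5 (AT1G20010), TUB6 (AT5G12250) and TUA4 (AT1G04820) followed, at -1.53, -1.46 and -1.42.

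**Figure D5:**
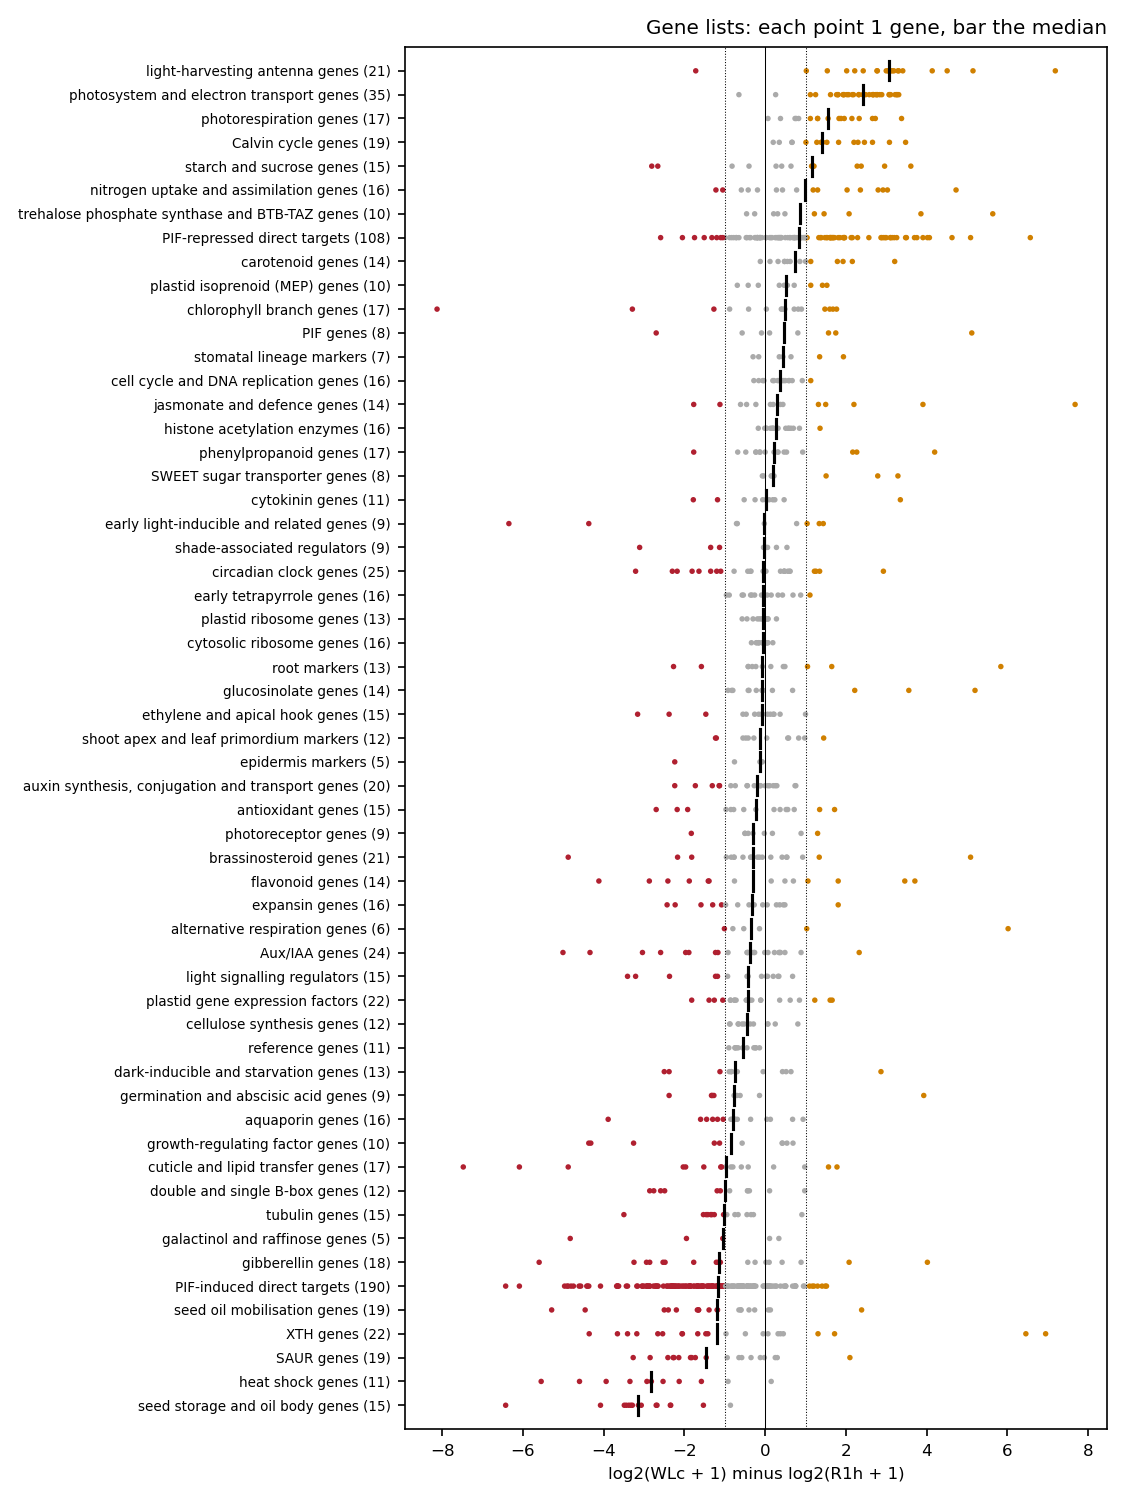
Difference between WLc and R1h on the log2 scale (horizontal axis) for the members of 57 gene lists, 1 point for each gene and a black bar for the median, ordered by median, with the number of members in brackets. Dotted lines mark 2-fold. Antenna genes stand at the top with a median of 3.06, and seed storage and oil body genes at the bottom with -3.14.

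Growth by cell elongation involves auxin signalling, loosening of the wall and gibberellins. Of 24 Aux/IAA genes, whose proteins repress auxin response and are themselves auxin-induced, 8 were lower and 1 higher (median -0.37). IAA20 (AT2G46990) had 6.18 pseudo-counts in WLc, against 230 in R1h and 617 in D (-5.01). IAA19 (AT3G15540) had 18 in WLc, against 154 in R1h and 423 in D (-3.04). IAA6 (AT1G52830) had 1 read in WLc and 26.2 pseudo-counts in R1h, a ratio of R1h over WLc of 76.2 (95% counting interval 13.9–3193). IAA5 (AT1G15580) differed by -2.59, and IAA27 (AT4G29080) was the higher one, with 70.8 in WLc, against 13.3 in R1h (2.33).

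Of 19 SAUR genes, which promote cell expansion, 10 were lower and 1 higher (median -1.46). SAUR68 (AT1G29490) had 7.19 pseudo-counts in WLc, against 77.8 in R1h and 152 in D (-3.27), SAUR1 (AT4G34770) had 20.5 in WLc, against 154 in R1h (-2.85), and SAUR28 (AT3G03830) had 8.07 in WLc, against 47.3 in R1h (-2.41). SAUR19 (AT5G18010) stood at -2.28 and SAUR6 (AT2G21210) at 2.1, with 77.4% and 71.8% of their 3′-end windows unique. Among 20 genes of auxin synthesis, conjugation and transport 5 were lower and none higher (median -0.20). They included the kinase gene WAG2 (AT3G14370, -2.24), the flavin monooxygenase gene YUC8 (AT4G28720, -1.73) and the conjugating enzyme genes GH3.3 (AT2G23170, -1.31) and GH3.5 (AT4G27260, -1.14). YUC8 had 17 in WLc, against 59 in R1h and 53.8 in D.

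Wall genes held members at both ends of the range. Of 22 XTH genes 11 were lower and 4 higher (median -1.20). XTH17 (AT1G65310) had 33.3 pseudo-counts in WLc, against 706 in R1h and 763 in D (-4.36), and XTH15 (AT4G14130) had 151 in WLc, against 1924 in R1h and 10864 in D (-3.66). In contrast, XTH7 (AT4G37800) had 12231 in WLc, against 138 in R1h and 179 in D (6.46), beside XTH6 at 6.95. Of 16 expansin genes, whose proteins loosen the wall, 5 were lower and 1 higher (median -0.33). EXPA3 (AT2G37640) had 816 in WLc, against 4399 in R1h (-2.43) and EXPA11 (AT1G20190) had 358 in WLc, against 1679 in R1h (-2.23). EXPA10 (AT1G26770) stood at -1.59 and EXPB3 (AT4G28250), a β-expansin, at 1.81. None of 12 cellulose synthesis genes was called in either direction (median -0.45), with KOR1 (AT5G49720), a membrane endoglucanase, at -0.66 and CTL1 (AT1G05850), a chitinase-like protein, at -0.29.

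Of 18 gibberellin genes 10 were lower and 2 higher (median -1.14). GA3OX1 (AT1G15550), which makes the active hormone, had 11.4 pseudo-counts in WLc, against 94.1 in R1h and 85.8 in D (-2.94). GA20OX2 (AT5G51810), of the step before it, had 19.5 in WLc, against 3.86 in R1h and 22 in D (2.08). GA2OX8 (AT4G21200), which inactivates precursors, had 2 reads in WLc and 15 pseudo-counts in R1h, a ratio of R1h over WLc of 22 (95% counting interval 6.08–198). GA3OX1, of synthesis, and the GA2OX genes named here, of inactivation, were thus found on the same side, and GA20OX2, of synthesis, on the other.

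Of 21 brassinosteroid genes 2 were higher (9.52%) and 3 lower (14.3%), with a median of -0.30. These shares were near the 12.1% and 9.93% over all genes. BEE3 (AT1G73830), a bHLH gene of brassinosteroid response, had 255 pseudo-counts in WLc, against 6.55 in R1h and 120 in D (5.09), and BES1 (AT1G19350), a transcription factor of the pathway, had 1346 in WLc, against 530 in R1h (1.34). PRE5 (AT3G28857), a small HLH protein of growth, had 2.59 in WLc, against 104 in R1h and 166 in D (-4.88). BEE1 (AT1G18400), a relative of BEE3, stood at -2.17, and the synthesis gene BR6OX1 (AT5G38970) at -1.82. The close relatives BEE1 and BEE3 therefore differed in opposite directions.

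Among 15 ethylene and apical hook genes 3 were lower (20%) and none higher (median -0.09), beside 9.93% lower over all genes. The lower ones were all enzymes of ethylene synthesis: ACS5 (AT5G65800, -3.16), ACO1 (AT2G19590, -2.38) and ACS2 (AT1G01480, -1.47). ACS5 had 1.9 pseudo-counts in WLc, against 24.9 in R1h and 103 in D. Of 11 cytokinin genes 1 was higher and 2 lower (median 0.02). CKX4 (AT4G29740), a cytokinin oxidase, had 12.5 in WLc and 1 read in R1h, a ratio of 38.7 (95% counting interval 6.35–1524), while CKX5 (AT1G75450) stood at -1.78, with 57% of its windows unique, and the response regulator gene ARR5 (AT3G48100) at -1.18. Of 9 regulators associated with shade 3 were lower and none higher (median -0.03), namely PAR2 (AT3G58850), an HLH protein, with 157 in WLc, against 1364 in R1h and 1287 in D (-3.11), and the homeodomain genes HAT2 (AT5G47370, -1.35) and HB23 (AT1G26960, -1.13).

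Genes of starch and sucrose, of sugar transport and of nitrogen held more higher than lower members, unlike the oil mobilisation genes above. Of 15 starch and sucrose genes 8 were higher and 2 lower (median 1.15). BAM3 (AT4G17090), the β-amylase of leaf starch breakdown, had 392 pseudo-counts in WLc, against 31.2 in R1h and 2.98 in D (3.61), and GBSS1 (AT1G32900), the granule-bound starch synthase, had 746 in WLc, against 94.8 in R1h (2.96). The lower members were GPT2 (AT1G61800), which imports glucose-6-phosphate into plastids (-2.81), and APL3 (AT4G39210), an ADP-glucose pyrophosphorylase subunit, with 6.1 in WLc, against 43.8 in R1h (-2.66). Of 8 SWEET sugar transporter genes 3 were higher and none lower (median 0.19). SWEET2 (AT3G14770) had 601 in WLc, against 210 in R1h and 40.8 in D (1.51). SWEET5 (AT5G62850) and SWEET13 (AT5G50800) had 1 and 2 reads in R1h, with ratios of 35 (interval 6.18–1485) and 16.1 (interval 4.04–136).

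Of 16 genes of nitrogen uptake and assimilation 8 were higher and 2 lower (median 0.98). ASN2 (AT5G65010), an asparagine synthetase, had 3230 pseudo-counts in WLc, against 121 in R1h and 93.1 in D (4.73). NIA2 (AT1G37130), the main nitrate reductase, had 24285 in WLc, against 2977 in R1h and 1328 in D (3.03). The ferredoxin-dependent glutamate synthase gene GLU1 (AT5G04140) differed by 2.92 and the ammonium transporter gene AMT1-2 (AT1G64780) by 2.80. The lower members were both cytosolic glutamine synthetases, GLN1.3 (AT3G17820) at -1.22 and GLN1.1 (AT5G37600) at -1.05, whereas the plastid isoform GS2 had 46558 in WLc, against 11369 in R1h (2.03).

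BT1 to BT5 encode BTB-TAZ scaffold proteins that respond to nitrate, sugar and the clock, and stood with the class II trehalose phosphate synthases in a list of 10 genes of which 5 were higher and none lower (median 0.86). BT1 (AT5G63160) had 14295 pseudo-counts in WLc, against 286 in R1h and 636 in D (5.64). BT2 (AT3G48360) had 4760 in WLc, against 326 in R1h and 1099 in D (3.86). BT3 (AT1G05690) and BT5 (AT4G37610) stood at 2.08 and 1.46. Among genes induced by darkness or starvation 3 of 13 were lower and 1 was higher (median -0.74). EXL4 (AT5G09440) had 985 in WLc, against 5598 in R1h and 9471 in D (-2.50), DIN9 (AT1G67070) stood at -2.38 and the dormancy-associated gene DRM1 (AT1G28330) had 3901 in WLc, against 8479 in R1h and 39447 in D (-1.12). KFB20 (AT1G80440), an F-box protein gene, was the higher one, with 652 in WLc, against 88.4 in R1h and 474 in D (2.87). Of 6 genes of alternative respiration 2 were higher and 1 lower (median -0.34), with NDA1 (AT1G07180), an inner-membrane NAD(P)H dehydrogenase, at 569 in WLc, against 7.8 in R1h and 1.26 in D (6.02), NDC1 (AT5G08740) at 1.03 and NDB2 (AT4G05020) at -1.01.

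Of 14 flavonoid genes 4 were higher and 6 lower (median -0.31). MYB111 (AT5G49330), a MYB regulator of flavonol synthesis, had 13.4 pseudo-counts in WLc, against 250 in R1h and 56 in D (-4.12), and UGT89C1 (AT1G06000), which adds rhamnose to flavonols, had 50.8 in WLc, against 379 in R1h and 40.4 in D (-2.87). The late anthocyanin enzymes LDOX (AT4G22880) and DFR (AT5G42800) had 50.7 and 43.1 in WLc, against 2.94 and 2.99 in R1h (3.71 and 3.46), where 88.5% of the windows of LDOX were unique. CHS, the entry enzyme, was not called, at 2040 in WLc, against 1253 in R1h and 114 in D (0.70). F3H, of the central part, was lower, at 848 in WLc, against 3127 in R1h and 33.9 in D (-1.88).

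Of 17 phenylpropanoid genes 3 were higher and 1 lower (median 0.22). FAH1 (AT4G36220), ferulate 5-hydroxylase of sinapate synthesis, had 276 pseudo-counts in WLc, against 14.1 in R1h and 14.1 in D (4.2), and SNG1 (AT2G22990), which makes sinapoylmalate, a UV screen, had 885 in WLc, against 196 in R1h (2.17). PAL3 (AT5G04230), a phenylalanine ammonia-lyase, stood at 2.27, and UGT84A1 (AT4G15480), which glucosylates sinapate, at -1.77. Of 14 glucosinolate genes 3 were higher and none lower (median -0.08). CYP83A1 (AT4G13770), of the aliphatic branch, had 35.9 in WLc and was listed at 0 in R1h and in D. MYB28 (AT5G61420), the regulator of that branch, had 45.2 in WLc, against 2.93 in R1h (3.56), and the myrosinase gene TGG1 (AT5G26000) had 4177 in WLc, against 894 in R1h (2.22). CYP83B1, of the indole branch, was not called, at -0.92.

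Besides LOX2, further genes of jasmonate synthesis were higher. Of 14 jasmonate and defence genes 5 were higher and 2 lower (median 0.29). AOC2 (AT3G25770), an allene oxide cyclase, had 106 pseudo-counts in WLc, against 6.15 in R1h (3.91), and the storage protein gene VSP2 (AT5G24770) had 23.2 in WLc, against 4.28 in R1h (2.2). MYC2 (AT1G32640), the bHLH regulator of jasmonate response, had 478 in WLc, against 1633 in R1h (-1.77), and its repressor JAZ1 (AT1G19180) stood at -1.12. Of 15 antioxidant genes 2 were higher (13.3%) and 3 lower (20%), beside 12.1% and 9.93% over all genes, with a median of -0.23. The thylakoid ascorbate peroxidase gene TAPX (AT1G77490) stood at 1.72 and the glutathione reductase gene GR (AT3G54660) at 1.35. CAT3 (AT1G20620), a catalase, had 1809 in WLc, against 11780 in R1h and 15832 in D (-2.70), and the copper-zinc superoxide dismutase genes CSD2 (AT2G28190) and CSD1 (AT1G08830) stood at -2.18 and -1.92.

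Ribosome genes differed little. None of 16 cytosolic ribosome genes (median -0.06) and none of 13 plastid ribosome genes (median -0.06) was called. RPP0B (AT3G09200), of the cytosolic ribosome, had 23091 pseudo-counts in WLc, against 22562 in R1h (0.03), and RPS13 (AT5G14320), of the plastid ribosome, had 11709 in WLc, against 11380 in R1h (0.04). RPL4A (AT3G09630) stood at -0.06 and RPL12-A (AT3G27830) at 0.28, with 79.8% of its windows unique. Of 22 factors of plastid gene expression and development 3 were higher and 4 lower (median -0.43). GLK1 (AT2G20570), an activator of photosynthesis genes, had 462 in WLc, against 151 in R1h (1.61), and the sigma factor gene SIGA (AT1G64860) had 644 in WLc, against 203 in R1h (1.66), while the superoxide dismutases of plastid nucleoids FSD2 (AT5G51100) and FSD3 (AT5G23310) stood at -1.82 and -1.39.

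Of 16 cell cycle and DNA replication genes 1 was higher, the B-type cyclin gene CYCB1;2 (AT5G06150, 1.13, with a counting interval that reached under 2-fold), and none was lower (median 0.38). Of 10 growth-regulating factor genes, which act in leaf growth, 5 were lower and none higher (median -0.85). GRF7 (AT5G53660) had 2.26 pseudo-counts in WLc, against 66.5 in R1h and 504 in D (-4.37), and GRF6 (AT2G06200) had 11.5 in WLc, against 119 in R1h (-3.26). GRF8 (AT4G24150) had 1 read in WLc, with a ratio of R1h over WLc of 75.3 (95% counting interval 13.7–3153), and GRF1 (AT2G22840) stood at -1.26. Of 16 histone acetylation enzymes 1 was higher, the deacetylase gene HDA14 (AT4G33470), with 141 in WLc, against 54.3 in R1h (1.36), and none was lower (median 0.26).

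The 11 genes in common use as references for transcript levels were all below 0, with none called and a median of -0.56, beside the median of 0.03 over all genes. ACT8 (AT1G49240), an actin, had 4933 pseudo-counts in WLc, against 9192 in R1h (-0.90), ACT2 (AT3G18780) had 15467 in WLc, against 26087 in R1h (-0.75), and UBQ10 (AT4G05320) had 18677 in WLc, against 31217 in R1h (-0.74), with 88.2% of its windows unique. ACT7 (AT5G09810) stood at -0.71, UBC9 (AT4G27960) at -0.67, GAPC1 (AT3G04120) at -0.56 and SAND (AT2G28390) at -0.45. The smallest differences were those of PP2AA3 (AT1G13320, -0.28), UBC21 (AT5G25760, -0.24), TIP41L (AT4G34270, -0.23) and YLS8 (AT5G08290, -0.14). A fold relative to ACT2 or UBQ10 would therefore be larger for a higher gene than the fold given here.

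Markers of the root, the stomatal lineage, the shoot apex and the epidermis were all measured, and no markers of cotyledons or hypocotyl were listed. Of 13 root markers 3 were higher (23.1%) and 2 lower (15.4%), beside 12.1% and 9.93% over all genes (median -0.07). Their summed levels were 0.0202% of the WLc column and 0.0509% of the R1h column. CASP1 and CASP2 accounted for nearly all of the difference between these sums. The lower ones were CASP1 (AT2G36100) and CASP2 (AT3G11550) of the endodermal Casparian strip, CASP2 having 429 pseudo-counts in WLc, against 2073 in R1h and 2534 in D (-2.27) and CASP1 952 in WLc, against 2852 in R1h (-1.58). The higher ones were the root hair gene COBL9 (1.05), PLT2 (AT1G51190) of the root meristem (1.65) and the iron transporter gene IRT1 (AT4G19690), with 56.2 in WLc and listed at 0 in R1h and in D. The root pattern genes SHR (-0.23) and SCR (0.14) were not called.

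Of 7 stomatal lineage markers 2 were higher and none lower (median 0.44). FAMA (AT3G24140), which acts in the last division of the lineage, had 442 pseudo-counts in WLc, against 115 in R1h and 119 in D (1.94), and MYB60 (AT1G08810), a guard cell gene, had 30.4 in WLc, against 11.4 in R1h (1.35). Of 12 markers of the shoot apex and leaf primordia 1 was higher (8.33%) and 2 lower (16.7%), with a median of -0.12. Over all genes the shares were 12.1% and 9.93%. The called ones were ANT (AT4G37750), of organ growth, at 1.45, AS2 (AT1G65620) at -1.23 and KNAT1 (AT4G08150), of the stem, at -1.21. Of 5 epidermis markers 1 was lower and none higher (median -0.13), the lower one being PDF1 (AT2G42840), with 4016 in WLc, against 19014 in R1h and 15338 in D (-2.24). The epidermal regulators ATML1 and PDF2 stood at -0.13 and -0.07. Summed levels of the epidermis markers were 0.0719% of the WLc column and 0.22% of the R1h column, and PDF1 accounted for most of that difference. Whether organ proportions had a part in the differences above was not tested.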

How the data were processed

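Whole wild-type seedlings were profiled by 3′-end RNA-seq in 9 libraries, 3 for each of WLc, R1h and D. According to the study's methods, 50-base single-end reads were aligned with Bowtie to TAIR9 transcripts, without mismatches and at unique positions within the last 500 bases of the coding strand, and counts were passed to edgeR. For Bowtie and edgeR alike, the version was not given in the sources used here. Values deposited by the authors are pseudo-counts (normalised signal per gene), as 1 mean per group, and no other column of per-sample values was present (0 columns). The tests planned for replicated libraries could therefore not be run, and the spread between libraries is unknown.

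The steps from these values were the following. The smallest values of each column gave the worth of 1 read (on average 0.327 pseudo-counts in WLc and 0.330 in R1h), from which approximate reads and exact Clopper-Pearson intervals (95%) of the ratio were obtained, conditional on the sum of both columns and covering counting error only. Differences were taken on log2(value + 1) for genes at 10 or more in 1 or both columns, and 2-fold or more was called. Genes are named by rule: the 12 largest and 12 lowest differences among genes with a level of 50 or more, and in each list the members of largest absolute difference, besides reference and marker genes and a few further members that were chosen after their values were seen. The members and lists were chosen with earlier results of these data known. Locus codes of 17125 of the 17173 genes were in the RefSeq annotation of TAIR10.1, which served for names, promoters and the share of 50-base windows that are unique, and the authors' own gene models were not used here. The calling step was tested on simulated data. Alternatives were other pseudocounts, floors and scalings and calls by the whole interval. Python 3.11.15, numpy 2.4.6, pandas 2.3.3, scipy 1.17.1 and matplotlib 3.10.9 were used.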

Additional observations from a re-analysis of the deposited data

How the results depend on the processing

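The counts of genes called higher and lower in WLc, 2075 and 1705, stayed within 1.5 times under every alternative run. They were 1758 and 1561 with a pseudocount of 5, 2123 and 1726 with 0.5, 1599 and 1459 with a floor of 30, 2145 and 1763 with no floor, 1932 and 1866 with both columns scaled to 1 total, 1785 and 1813 after quantile scaling, 2044 and 1744 with median-of-ratios scaling, and 1405 and 1285 where the whole counting interval had to pass. Higher genes were 54.9% of calls in the values as deposited and 49.6% after quantile scaling. Of 233 named genes 228 kept their sign under every setting, and of the 208 called among them 6 came under 2-fold in at least 1 setting of pseudocount, floor or scaling. The whole counting interval was not beyond 2-fold for 16 of the 208: SEP1, PPOX1, GLN1.1, ABI5, HB23, ACS2, ARR5, JAZ1, LTP3, NDC1, NDB2, SIP1, CYCB1;2, MYB60, PLT2 and AS2. Members named outside the rule, such as COBL9, are not among the 233. Of the 3 root markers called higher, only IRT1 had its whole interval beyond 2-fold, so COBL9 did not. By that criterion 0 early tetrapyrrole and 0 cell cycle genes were called. List medians changed sign for 7 of 57 lists, all between -0.24 and 0.20 (clock, early light-inducible and related, plastid ribosome, cytosolic ribosome, shade, cytokinin and root marker genes). No paired analysis was possible because the values are 1 mean per group, and leaving out single libraries was not run for the same reason. Depth limits low genes most, as the counting intervals show.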

Other observations

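The groups below were chosen after their values were seen. Genes of iron uptake and storage differed by more than most lists: of 19 members 13 were higher in WLc and 5 lower (median 2.57). The bHLH genes of the iron deficiency response led them, bHLH38 having 162 pseudo-counts in WLc, against 1.7 in R1h (5.92), and bHLH39 having 268 in WLc, against 11.4 in R1h (4.44). The nicotianamine synthase genes NAS4 and NAS1 differed by 4.00 and 3.81, the ferric reductase gene FRO2 by 2.59 and the transporter gene OPT3 by 2.57. The 5 lower members were the ferritin genes FER1, FER3 and FER4, whose proteins store iron, and MYB10 and NAS3. MYB10, a MYB gene, had the lowest difference (-3.85), and NAS3, a further nicotianamine synthase gene, stood at -1.76. FER1 had 1756 in WLc, against 6634 in R1h and 9471 in D (-1.92), and FER4 had 298 in WLc, against 1326 in R1h (-2.15). FRU, the upstream regulator of uptake genes, was not called, at -0.24.

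Of 12 CONSTANS-like B-box genes 5 were higher and none lower (median 0.45). BBX16 had 721 pseudo-counts in WLc, against 10.7 in R1h and 1.96 in D (5.94), and BBX14 had 2798 in WLc, against 387 in R1h and 284 in D (2.85). Among families taken from the words of the annotation, 25 of 50 genes annotated as TIR-NBS proteins were higher (50%), beside 12.1% over all genes. None of them was lower (median 1.04). RLM3 had 845 in WLc, against 64.2 in R1h, and AT4G19530 had 195 in WLc, against 6.22 in R1h (4.76). Of 14 cysteine-rich receptor-like kinase genes 6 were higher and none lower (median 0.74), and of 25 genes annotated as kinesins 8 were higher and 1 lower (median 0.76). Families of secreted and wall proteins differed among themselves, beside 12.1% higher and 9.93% lower over all genes: 21 of 47 GDSL lipase genes were lower and 9 higher (median -0.85), 25 of 136 proline-rich and extensin genes were lower and 24 higher (median 0.10), 12 of 47 class III peroxidase genes were lower and 13 higher (median -0.03), 3 of 25 beta-glucosidase genes were lower and 10 higher (median 0.20), and 11 of 34 arabinogalactan protein genes were lower and 3 higher (median -0.67), with AGP4 at 1611 in WLc, against 26960 in R1h. Further wall families held more lower than higher members. Of 44 pectin methylesterase and inhibitor genes 19 were lower and 5 higher (median -0.57). Of 37 pectin lyase-like genes 11 were lower and 4 higher (median -0.31). Of 83 glycosyl hydrolase genes 17 were lower and 6 higher (median -0.04). Of 295 genes annotated as ribosomal proteins 4 were higher and 2 lower (median -0.03).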
